A study of Homo sapiens with 6 samples.

Results

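The interferon regulatory factors (IRFs) were followed in ALL-SIL cells, a human leukaemia line of the T-cell acute lymphoblastic type, known for overexpression of TLX1 and for its NUP214-ABL1 kinase fusion. The 8 genes IRF1, IRF2, IRF3, IRF4, IRF5, IRF7, IRF8 and IRF9 were chosen by name, and all 8 were found among the 58096 genes of the count files by their Ensembl identifiers. Total RNA was sequenced from cells given JQ1 (1 µM, 24 h), which blocks the bromodomains through which BET proteins hold on to acetylated histones, and from DMSO controls. There were 3 libraries in each group, numbered 1 to 3. The treatment text of the controls repeats the JQ1 dose and time, so the groups rest on the sample titles, and what the controls received beside DMSO is not described. The labels do not say whether libraries of a group came from separate cultures, so the spread on which each p-value rests may be technical. All libraries came from 1 line, so differences between lines cannot be seen.

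IRFs are transcription factors that share a DNA-binding domain with a row of conserved tryptophans, with which they recognise the repeated GAAA motif of interferon-stimulated response elements (ISREs). IRF3 and IRF7 sit in the cytoplasm until the kinases TBK1 and IKKε, downstream of sensors of foreign nucleic acid, phosphorylate them, and then switch on interferon genes. Interferon in turn acts through JAK kinases to form ISGF3, a complex that holds STAT2 and IRF9 and binds ISREs. IRF1 drives interferon-gamma target genes such as those of antigen processing, IRF2 competes with it for the same sites, and IRF4, IRF5 and IRF8 are used mainly in activated lymphocytes, B cells and myeloid cells.

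Motifs known from interferon signalling, and the E-box of MYC and its partners, are shown first, in promoters of IRF genes and of their targets. Sequences come from RefSeq on GRCh38.p14, were searched over the 250 bases before each start on both strands, and are printed 5′ to 3′ with the matches in capitals. Of the 8 members 5 (IRF1, IRF4, IRF5, IRF8 and IRF9) had a promoter in the table. The IRF1 promoter, printed from 250 to 26 bases before the start (chr5:132490799-132491023, minus strand), held a gamma-activated site (GAS, TTCNNNGAA), which STAT dimers recognise, and a match to the NF-kB consensus.
IRF1: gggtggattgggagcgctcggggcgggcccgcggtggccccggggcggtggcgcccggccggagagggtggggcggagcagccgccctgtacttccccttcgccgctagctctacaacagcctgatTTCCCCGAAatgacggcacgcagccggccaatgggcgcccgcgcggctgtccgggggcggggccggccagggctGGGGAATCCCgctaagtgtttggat
The IRF9 promoter held an E-box (CACGTG, the site of MYC and its partners) beside a GAS match (chr14:24161188-24161216, plus strand), and an IRF core (AANNGAAA, which also lies within every ISRE) a little further on (chr14:24161220-24161247, plus strand).
IRF9, E-box and GAS: tcagacCACGTGatTTCTGGGAAaaggcc
IRF9, IRF core: cctggaggagAACTGAAActtagggtgg
Of the motifs searched, the IRF core was the only one found at IRF8, in both of its 2 promoter windows, and at IRF5, in 1 of 4 windows. IRF4 held no match in its window, and no ISRE was found in any window of the 5 genes.
Some target genes carry the full ISRE (GAAA, any 2 bases, then GAAA again), here from OAS3 (chr12:112938452-112938473, plus strand) and GBP1 (chr1:89065316-89065345, plus strand), which were lower under JQ1, and from HERC5 (chr4:88457035-88457064, minus strand) and IFI27 (chr14:94110631-94110660, plus strand), which were higher. The stretches of OAS3, GBP1 and IFI27 also lie inside those genes as GENCODE 29 places them.
OAS3: agccgggcggGAAAACGAAAcc
GBP1: agagtaatatGAAACTGAAAgtacttcgtt
HERC5: agctccagtgGAAAACGAAAcataatgttt
IFI27: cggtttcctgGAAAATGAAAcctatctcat
Among all 27305 genes with a promoter in the table the ISRE was present in 3.71%, the IRF core in 23.9%, the GAS in 8.09%, the NF-kB consensus in 11.8% and the E-box in 7.73%. A match is a string of letters and not a shown site.

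Gene counts per library ran from 15925885 to 25293884, so a level of 1 CPM (a gene's share of the library's counts on the usual CPM scale, with TMM-normalised library sizes) stood for 15.5 to 26.4 reads. Of 13975 genes with enough reads to be tested, 36.6% passed edgeR's test at an adjusted p under 0.05, 15.9% higher and 20.6% lower under JQ1, and the groups did not overlap for 48.9%. T-cell markers were present, with 12 of 13 listed genes tested (TRAC, the constant region of the T-cell receptor alpha chain, had at most 1 read). Of the tested genes 8 were lower and 1 higher. Among the 8, LCK fell by 1.86 ± 0.135 SE, CD28 by 2.62 ± 0.32 SE and CD5 by 2.50 ± 0.35 SE on the log2 scale. CD2, also among the 8, had 3, 1 and 0 reads in JQ1 libraries 1, 2 and 3. In DMSO libraries 1, 2 and 3 it had 24, 29 and 49. The 1 higher was TLX1 (log2 change 0.45, edgeR adjusted p = 0.0045), which this line is known to overexpress. No other gene of the list was called higher. The summed level of the list ran from 1198 to 1460 CPM in JQ1 libraries and from 1783 to 1982 CPM in DMSO libraries. That sum includes TLX1, with a mean of 249 CPM under JQ1 and 182 CPM in DMSO. Of 6 B-cell markers only CD79A and CD79B had enough reads (lists summed to 1.61 to 6.34 CPM under JQ1 and 11.5 to 24.4 CPM in DMSO), of 5 NK-cell markers only NKG7 (41.5 to 134 CPM under JQ1 and 132 to 223 CPM in DMSO), and of 7 myeloid markers none (0.0808 to 0.328 CPM under JQ1 and 0.246 to 0.471 CPM in DMSO). In bulk RNA, fewer cells of a type and less RNA per cell cannot be told apart.

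Of the 8 IRF genes 5 had enough reads to be tested, and of these IRF7 rose, IRF1 fell, and IRF2, IRF3 and IRF9 did not pass the test. The count of 2 called of 5 is near the background of 36.6% of all tested genes. The groups did not overlap for 3 of the 5 (IRF1, IRF7 and IRF9), against 48.9% of all tested genes. IRF4, IRF5 and IRF8 had between 0 and 2 reads in every library.

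IRF7, the factor that amplifies interferon production, showed the largest change of the family. It had 36.5, 37.5 and 27.4 CPM in JQ1 replicates 1, 2 and 3 (905, 799 and 426 reads), against 7.38, 9.34 and 5.60 CPM in DMSO replicates 1, 2 and 3 (150, 238 and 148 reads). Every JQ1 library lay above every DMSO library, and the lowest JQ1 value, in replicate 3, was still well clear of the highest DMSO value. The means were 33.8 ± 5.54 CPM under JQ1 and 7.44 ± 1.87 CPM in DMSO (SD, n = 3 each), a 4.55-fold rise (log2 change 2.19 ± 0.19 SE, edgeR adjusted p = 4.2e-05). Among the log2 changes of all 13975 tested genes it ranked 16 from the top. Within the libraries of one number the log2 difference was 2.23, 1.95 and 2.19 for numbers 1, 2 and 3. IRF7 (ENSG00000185507.19) lies on chromosome 11, 612553 to 615999, minus strand, by the next version of the gene in GENCODE 29. As background, IRF7 is abundant in plasmacytoid dendritic cells. None of 6 markers of these cells had enough reads to be tested, with at most 5 reads in any library and a summed level of 0 to 0.0938 CPM under JQ1 and 0.0492 to 0.378 CPM in DMSO.

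IRF1, the activator of antigen-processing and guanylate-binding protein genes, moved the other way and by much less. Its level was 87.3, 108 and 108 CPM in JQ1 replicates 1, 2 and 3, against 113, 139 and 147 CPM in DMSO replicates 1, 2 and 3. The groups did not overlap, although JQ1 replicates 2 and 3 and DMSO replicate 1 lay close together. The means were 101 ± 11.8 CPM under JQ1 and 133 ± 17.5 CPM in DMSO (SD, n = 3 each), a fall of 0.40 on the log2 scale (± 0.12 SE, edgeR adjusted p = 0.025). Within one number the log2 difference was -0.37, -0.37 and -0.45 for numbers 1, 2 and 3. In fits by group only, the call was lost without JQ1 replicate 1 (log2 change -0.30, edgeR adjusted p = 0.096), without DMSO replicate 2 (-0.36, 0.075) and without DMSO replicate 3 (-0.32, 0.09). With the replicate number as a block and all libraries, IRF1 was called lower (-0.40 ± 0.06 SE, edgeR adjusted p = 1.1e-06). Of all tested genes 29.6% were lower under that block. IRF1 (ENSG00000125347.13) lies on chromosome 5, 132481609 to 132490798, minus strand.

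**Figure D1:**
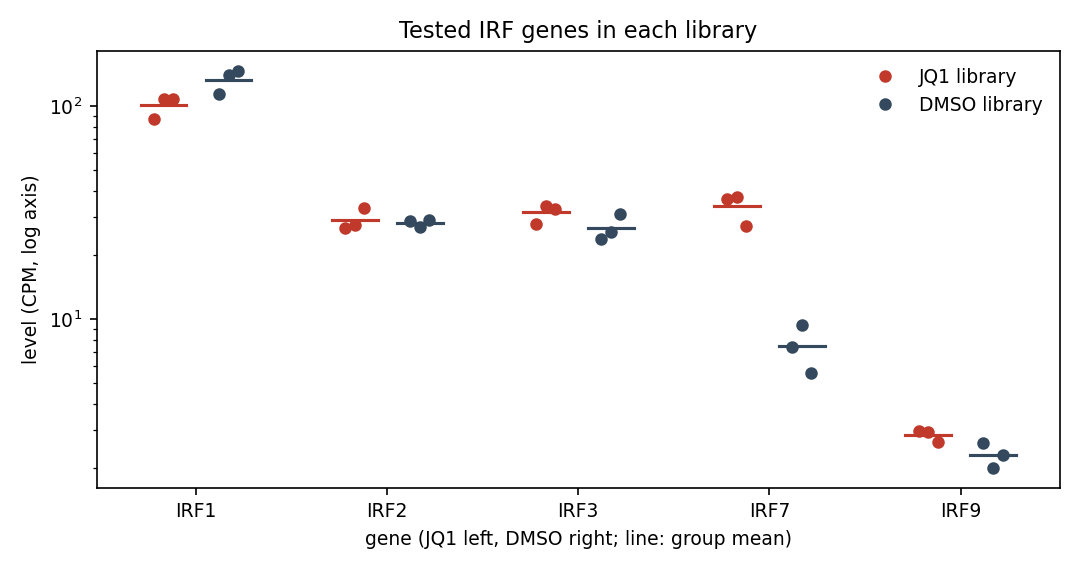
Level of the 5 tested IRF genes in CPM on a log axis, 1 point per library, JQ1 (3 libraries) left of DMSO (3 libraries), with a line at each group mean. IRF7 stands at 27.4 to 37.5 CPM under JQ1 and 5.60 to 9.34 CPM in DMSO, whereas the groups overlap for IRF2 and IRF3.

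IRF2, the antagonist of IRF1, differed by less than the spread between libraries. It had 26.8, 27.8 and 33.3 CPM in JQ1 replicates 1, 2 and 3, against 28.8, 27.2 and 29.1 CPM in DMSO replicates 1, 2 and 3. The groups overlapped, and the single high library was JQ1 replicate 3. The log2 change was 0.04 ± 0.11 SE (edgeR adjusted p = 0.79), and it was -0.05 without JQ1 replicate 3 and -0.02 when library size was the only scaling. IRF2 (ENSG00000168310.10) lies on chromosome 4, 184387713 to 184474580, minus strand.

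IRF3, the factor that starts interferon induction without needing to be made first, had 28.1, 34.0 and 32.9 CPM in JQ1 replicates 1, 2 and 3, against 23.7, 25.5 and 31.2 CPM in DMSO replicates 1, 2 and 3. DMSO replicate 3 lay within the range of the JQ1 libraries. The log2 change was 0.24 ± 0.13 SE (edgeR adjusted p = 0.17). With the replicate number as a block IRF3 was called higher (0.25 ± 0.08 SE, edgeR adjusted p = 0.01), and JQ1 was above DMSO in all 3 pairs of one number, by 0.24, 0.41 and 0.07. Under that block 2 of the 5 tested members were higher and 1 lower, beside 27.3% and 29.6% of all tested genes. IRF3 (ENSG00000126456.15) lies on chromosome 19, 49659569 to 49665875, minus strand.

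IRF9, the DNA-binding subunit of ISGF3, had the fewest reads of the tested members, with 74, 63 and 41 in JQ1 replicates 1, 2 and 3, against 53, 51 and 61 in DMSO replicates 1, 2 and 3. In CPM this was 2.99, 2.95 and 2.64 under JQ1, against 2.61, 2.001 and 2.31 in DMSO. The groups were apart by a narrow margin, between JQ1 replicate 3 and DMSO replicate 1, and the log2 change of 0.32 ± 0.21 SE did not pass the test (edgeR adjusted p = 0.26). Not all of the gene could be counted. In GENCODE 29, of its 3794 exon bases 1838 (48.4%) are also exon of AL136295.5, a read-through gene on the same strand that joins the neighbouring RNF31 to IRF9, and reads that fall in 2 genes are not counted for either in files of this layout. For the other 7 members no exon base was shared with another gene on the same strand. IRF9 (ENSG00000213928.8) lies on chromosome 14, 24161053 to 24166565, plus strand.

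The 3 remaining members were at or near 0 on the sense strand. IRF4, which marks activated lymphocytes and plasma cells, had 1, 1 and 0 reads in JQ1 replicates 1, 2 and 3, against 0 in each DMSO library. IRF8, a factor of myeloid and B-cell development, had 0 in each JQ1 library, against 0, 2 and 2 in DMSO replicates 1, 2 and 3. IRF5, a factor of macrophage activation, had 0, 1 and 0 in JQ1 replicates 1, 2 and 3, against 0 in each DMSO library. None of these exceeds the floor of 3 reads per library, which stands for 0.114 to 0.193 CPM, so no fold change is given, and a difference was not detectable at this depth. The floor covers counting error only.

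**Figure D2:**
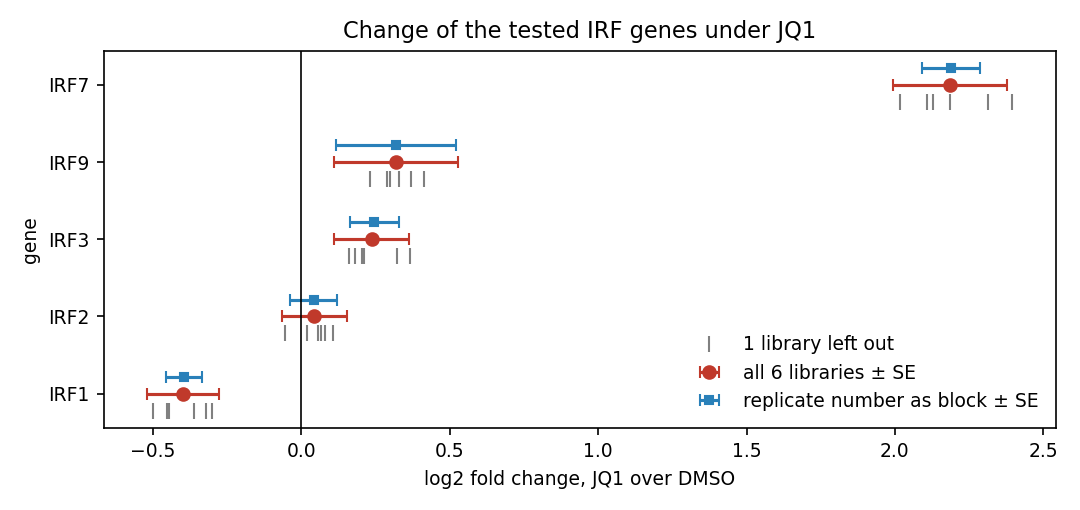
Log2 fold change of JQ1 over DMSO for the 5 tested IRF genes with 3 libraries a group: all libraries (circles ± SE), the replicate number as a block (squares ± SE) and 1 library left out at a time (ticks). IRF7 stands at 2.19 and IRF1 at -0.40, and the ticks of IRF2 lie on both sides of 0.

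Per length, the rise of IRF7 changed the make-up of the family. The lengths merge all annotated exons of a gene, 7799 bases for IRF1, 3116 for IRF2, 3794 for IRF3 and 2628 for IRF7. Which transcripts of each gene these cells make was not measured. The order of the genes and their shares therefore depend on these lengths. In TPM (the CPM-like scale after division of counts by merged exon length) the order in DMSO was IRF1 at 49.1 ± 8.08, IRF2 at 26.1 ± 2.18, IRF3 at 20.4 ± 4.03, IRF7 at 8.06 ± 1.66 and IRF9 at 1.75 ± 0.26 (SD, n = 3). IRF2 and IRF3 overlapped in that order and the other neighbours did not. Under JQ1 the order was IRF1 at 33.7 ± 2.61, IRF7 at 33.6 ± 5.91, IRF2 at 24.5 ± 2.72, IRF3 at 21.7 ± 1.25 and IRF9 at 1.97 ± 0.18 (SD, n = 3). Here the libraries of IRF1 and IRF7, of IRF7 and IRF2, and of IRF2 and IRF3 overlapped, and those of IRF3 and IRF9 did not. Over exon bases that no other gene shares, IRF9 had 3.69 ± 0.35 TPM under JQ1 and 3.28 ± 0.49 TPM in DMSO (SD, n = 3 each), still below the other 4, an estimate chosen after seeing the data.

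IRF7 made up 33.2%, 30.5% and 23.6% of the family's summed TPM in JQ1 replicates 1, 2 and 3, against 8.38%, 9.50% and 5.45% in DMSO replicates 1, 2 and 3. IRF1 made up 26.7%, 29.6% and 31.1% in JQ1 replicates 1, 2 and 3, against 43.4%, 47.8% and 48.0% in DMSO replicates 1, 2 and 3. Neither share overlapped between groups. By merged exon length, IRF7 and IRF1 held nearly equal shares under JQ1, on average 29.1% and 29.2%. Without division by length, IRF7 had 33.8 CPM and IRF1 101 CPM under JQ1. IRF3 kept to 17.7% to 19.6% under JQ1 and 18.0% to 21.0% in DMSO. The summed TPM of the family itself was 116 ± 1.66 under JQ1 and 105 ± 12.4 in DMSO (SD, n = 3 each), with 1 DMSO library above every JQ1 library. The ratio of IRF7 to IRF3, the partners in interferon induction, was 1.88, 1.59 and 1.20 in JQ1 replicates 1, 2 and 3, against 0.449, 0.529 and 0.259 in DMSO replicates 1, 2 and 3. The ratio of the activator IRF1 to its antagonist IRF2 was 1.30, 1.56 and 1.29 in JQ1 replicates 1, 2 and 3, against 1.57, 2.05 and 2.01 in DMSO replicates 1, 2 and 3, where JQ1 replicate 2 and DMSO replicate 1 nearly touch.

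**Figure D3:**
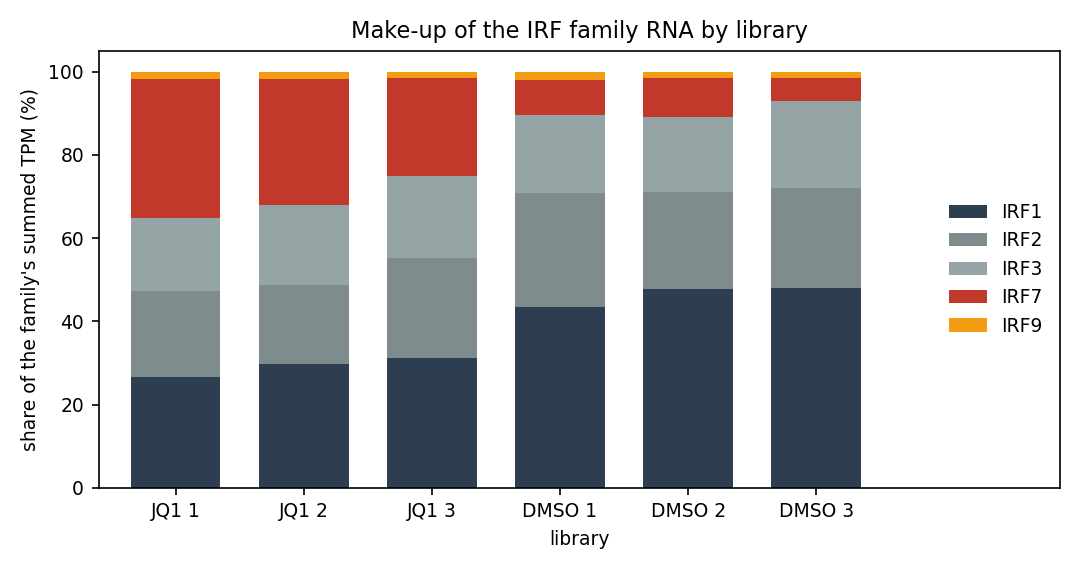
Share of each IRF gene in the family's summed TPM (percent, from 0 to 100) in each of 3 JQ1 and 3 DMSO libraries. IRF7 holds 23.6% to 33.2% under JQ1 and 5.45% to 9.50% in DMSO, and IRF1 26.7% to 31.1% under JQ1 and 43.4% to 48.0% in DMSO; IRF4, IRF5 and IRF8 are too low to be drawn.

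Neighbouring genes were also read. PHRF1, which ends 331 bases from IRF7 on the other strand, had a log2 change of 0.05 ± 0.09 SE (edgeR adjusted p = 0.71), with 84.7 ± 5.18 CPM under JQ1 and 81.8 ± 7.23 CPM in DMSO (SD, n = 3 each), and CDHR5 on the other side had 0 reads. At IRF1 the antisense transcript C5orf56, which overlaps the gene on the other strand, fell, with 179, 236 and 142 reads in JQ1 libraries 1, 2 and 3, against 297, 755 and 758 in DMSO libraries 1, 2 and 3 (9.15 ± 1.92 CPM under JQ1 and 24.3 ± 8.41 CPM in DMSO, log2 change -1.42 ± 0.28 SE, edgeR adjusted p = 0.0049). The low DMSO library there was replicate 1, which was also the lowest DMSO library for IRF1. At IRF2 the divergent long non-coding transcript AC099343.3, 222 bases from the IRF2 start, rose (log2 change 1.10 ± 0.23 SE, edgeR adjusted p = 0.0043) while IRF2 did not pass the test. BCL2L12, which overlaps IRF3 on the other strand, rose by 0.55 ± 0.12 SE (edgeR adjusted p = 0.0044), to 21.0 ± 1.83 CPM under JQ1, against 14.3 ± 0.85 CPM in DMSO. PRMT1, an arginine methyltransferase gene on the other side of IRF3, fell by 0.47 ± 0.12 SE (edgeR adjusted p = 0.014). REC8, a meiotic cohesin gene downstream of IRF9, rose by 1.02 ± 0.29 SE (edgeR adjusted p = 0.018). In fits by group only, it did not pass without JQ1 replicate 2 (0.76, edgeR adjusted p = 0.086), without DMSO replicate 3 (0.89, 0.061) or with unstranded counts (0.06, 0.85). The libraries keep the strand, and the opposite strand held 0.514% of the reads of both strands at IRF1, 1.59% at IRF3 and 5.16% at IRF7. These shares pool both groups. At IRF7 the opposite strand had 25, 34 and 18 reads in JQ1 libraries 1, 2 and 3. It had 7, 27 and 34 in DMSO libraries 1, 2 and 3. The sense reads were 905, 799 and 426 under JQ1 and 150, 238 and 148 in DMSO, so the opposite-strand share was larger in DMSO.

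The genes most like IRF7 over the 6 libraries were FGD6, DCXR, SMIM14, EFR3B and CASTOR3, by the distance between log2 values of CPM + 0.5, each centred on its own mean. FGD6, a guanine nucleotide exchange factor gene, had 58.9 ± 7.88 CPM under JQ1 and 17.3 ± 2.61 CPM in DMSO, at a distance of 0.611, and DCXR, a carbonyl reductase gene, had 158 ± 27.4 CPM under JQ1 and 47.7 ± 9.37 CPM in DMSO, at 0.645. EFR3B is close only on this scale, since it had at most 1 read in a DMSO library. The genes most like IRF1 were SEMA4D, HDDC3, WDR1, MLH3 and GRAMD1A, at distances from 0.0931 to 0.107. SEMA4D, a semaphorin of lymphocytes, had 101 ± 10.1 CPM under JQ1 and 131 ± 13.5 CPM in DMSO. Of these 5, HDDC3 did not pass the test and SEMA4D, WDR1, MLH3 and GRAMD1A were called lower. In fits by group only, none of the 4 calls held without JQ1 library 1, DMSO library 2 or DMSO library 3 (edgeR adjusted p from 0.052 to 0.18). With the replicate block and all libraries HDDC3 was called lower (-0.39, edgeR adjusted p = 0.0053). The 6 libraries are few, and closeness in them says nothing of shared control.

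Upstream of the IRFs, genes of nucleic acid sensors and their adaptors were mostly lower: of 13 tested members of 17, 9 fell and 2 rose, with a median log2 change of -0.77, beside 0.00 over all tested genes, of which 20.6% were lower and 15.9% higher. The same shares apply to each list that follows. IRAK1, the kinase that links Toll-like receptors to IRF7, fell to 53.2 ± 7.30 CPM under JQ1, against 156 ± 3.68 CPM in DMSO (log2 change -1.55 ± 0.11 SE, edgeR adjusted p = 9.7e-06). STING1, the adaptor of cytosolic DNA sensing, fell by 1.31 ± 0.12 SE, the RNA sensor RIGI by 1.12 ± 0.14 SE, and TRAF3, an adaptor of IRF activation, by 0.90 ± 0.12 SE. The RNA sensor TLR3, with 0, 1 and 1 reads in JQ1 libraries 1, 2 and 3, against 15, 13 and 23 in DMSO libraries 1, 2 and 3, was also called lower. IRAK4 (0.34 ± 0.08 SE) and TRAF6 (0.31 ± 0.11 SE) rose. In fits by group only, leaving out JQ1 library 1, 2 or 3 or DMSO library 2 or 3 lost the TRAF6 call. Each such fit left 1 member of the list higher. With the replicate block and all libraries TRAF6 was called higher (0.31, edgeR adjusted p = 0.00028), as were 27.3% of all tested genes. TLR7 and TLR9, the sensors through which IRF7 is best known, had too few reads to be tested (at most 5 in a library over the untested members of the list).

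Of the kinases that phosphorylate IRFs and their scaffolds, 3 of 7 fell and 1 rose (median log2 change -0.16), beside 20.6% lower and 15.9% higher among all tested genes. IKBKE, which encodes IKKε, fell to 21.2 ± 2.80 CPM under JQ1, against 48.7 ± 6.22 CPM in DMSO (-1.20 ± 0.13 SE, edgeR adjusted p = 9.1e-05). TBK1 fell by 0.66 ± 0.11 SE and its scaffold TBKBP1 by 1.62 ± 0.19 SE. CHUK, the kinase IKKα, rose by 0.34 ± 0.11 SE (edgeR adjusted p = 0.035). In fits by group only, leaving out JQ1 library 1, 2 or 3 or DMSO library 2 or 3 lost that call. Those fits gave edgeR adjusted p from 0.056 to 0.1, and 0 members higher. With the replicate block and all libraries CHUK was called higher (0.34, edgeR adjusted p = 4.1e-05). That block called 2 members higher and 4 lower, beside 27.3% and 29.6% of all tested genes.

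Interferon genes, the targets of activated IRF3 and IRF7, were at or near 0. Of 21 listed, 18 had no read in any library and IFNL1 alone could be tested. IFNL1, a type III interferon gene, had 4, 15 and 6 reads in JQ1 replicates 1, 2 and 3, against 27, 46 and 30 in DMSO replicates 1, 2 and 3, and fell (log2 change -1.78 ± 0.44 SE, edgeR adjusted p = 0.01). The groups did not overlap.

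Receptor and JAK-STAT genes went higher more often than lower, with 4 of 10 tested members higher, 1 lower and a median log2 change of 0.18, beside 15.9% higher and 20.6% lower among all tested genes. The replicate block called 6 higher and 1 lower, beside 27.3% and 29.6% of all tested genes. STAT2, the partner of IRF9 in ISGF3, had 99.9, 110 and 83.8 CPM in JQ1 replicates 1, 2 and 3, against 58.1, 68.4 and 57.8 CPM in DMSO replicates 1, 2 and 3. The groups did not overlap, and the log2 change was 0.67 ± 0.11 SE (edgeR adjusted p = 0.0014). JAK1 rose by 0.63 ± 0.12 SE and the interferon-gamma receptor chain IFNGR1 by 0.60 ± 0.14 SE, whereas the second chain of that receptor, IFNGR2, fell by 0.74 ± 0.11 SE. IL10RB, a chain of the type III interferon receptor, rose by 0.39 ± 0.12 SE. In fits by group only, leaving out JQ1 library 1 or 2 or DMSO library 1 or 3 lost that call (edgeR adjusted p from 0.055 to 0.082). With the replicate block and all libraries IL10RB was called higher (0.38, edgeR adjusted p = 0.00074). IFNLR1, the other type III receptor gene of the list, had 0 reads in every library. Of 9 tested brakes and corepressors 1 rose and 1 fell (median -0.16). PIAS1, a SUMO ligase that restrains STAT signalling, rose by 0.55 ± 0.09 SE, and PTPN6, the phosphatase SHP-1, fell to 15.8 ± 3.14 CPM under JQ1, against 63.9 ± 4.68 CPM in DMSO (-2.003 ± 0.14 SE, edgeR adjusted p = 1e-05). The IRF2-binding corepressors IRF2BP1 (-0.18 ± 0.10 SE, edgeR adjusted p = 0.19) and IRF2BP2 (-0.33 ± 0.20 SE, edgeR adjusted p = 0.24) did not pass. The block called both lower (edgeR adjusted p = 0.036 and 3.8e-05). It gave 4 members of the list lower and 1 higher, beside 29.6% and 27.3% of all tested genes.

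Genes that ISGF3 switches on were mostly lower while IRF7, itself one of its known targets, and STAT2 were higher. Of 36 tested members of 38, 24 fell and 2 rose, with a median log2 change of -0.67. The replicate block called 31 lower and 3 higher, beside 29.6% and 27.3% of all tested genes. OAS3, which makes the activator of RNase L, had 3.71, 4.22 and 3.74 CPM in JQ1 replicates 1, 2 and 3, against 21.1, 22.05 and 25.0 CPM in DMSO replicates 1, 2 and 3. The groups were far apart (log2 change -2.54 ± 0.14 SE, edgeR adjusted p = 5.5e-06). CMPK2, a mitochondrial nucleotide kinase, fell to 27.9 ± 2.70 CPM under JQ1, against 97.4 ± 6.06 CPM in DMSO (-1.80 ± 0.10 SE), OAS2 by 1.86 ± 0.13 SE and XAF1, a promoter of apoptosis, by 2.17 ± 0.19 SE. The 2 that rose were the ISG15 ligase HERC5, with 38.4 ± 7.50 CPM under JQ1 and 20.5 ± 5.66 CPM in DMSO (0.91 ± 0.21 SE, edgeR adjusted p = 0.0088), and IFI27 (0.97 ± 0.29 SE, edgeR adjusted p = 0.025). In fits by group only, leaving out JQ1 library 1, 2 or 3 or DMSO library 1 or 3 lost the IFI27 call. DESeq2 by group lost it too (adjusted p = 0.071), each time with 1 member higher. With the replicate block and all libraries IFI27 was called higher (0.96, edgeR adjusted p = 0.012). An ISRE lay in the promoter of 10 of 18 members lower under JQ1 that had one in the table, of 6 of 10 that did not pass the test without the block (55.6% and 60%), and of both that were higher. Over all 31 members with a promoter the share was 61.3%, against 3.71% of all promoters, a list chosen for such sites.

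Target genes of IRF1 fell in 10 of 18 tested cases and rose in 1, with a median log2 change of -0.44. The guanylate-binding protein genes GBP1 and GBP3, of cell-autonomous defence, fell by 1.66 ± 0.16 SE and 1.84 ± 0.17 SE, the immunoproteasome subunit PSMB8 fell to 76.4 ± 7.99 CPM under JQ1, against 165 ± 6.33 CPM in DMSO (-1.11 ± 0.10 SE, edgeR adjusted p = 3e-05), and the peptide-loading gene TAPBP by 0.56 ± 0.09 SE. Whether these changes differ from that of IRF1 (-0.40 ± 0.12 SE) was not tested. The count of members higher was 0 when any of JQ1 libraries 1 and 2 or DMSO library 3 was left out. It was 2 without JQ1 library 3 or DMSO library 2 and with DESeq2. The replicate block called 3 higher and 11 lower, beside 27.3% and 29.6% of all tested genes.

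Partner factors with which IRF4 and IRF8 bind DNA in lymphocytes were lower in 6 of 9 tested cases and higher in 2 (median -0.74). BATF fell to 19.4 ± 3.52 CPM under JQ1, against 51.5 ± 1.76 CPM in DMSO (-1.40 ± 0.13 SE, edgeR adjusted p = 4.3e-05), the Ikaros family genes IKZF3 by 1.37 ± 0.13 SE and IKZF1 by 0.98 ± 0.14 SE, and TCF3 by 0.57 ± 0.09 SE. JUN (0.65 ± 0.17 SE) and JUND (0.46 ± 0.09 SE) rose. SPI1 and SPIB, the partners best known for IRF4 and IRF8 in B and myeloid cells, had too few reads to be tested, as had IRF4 and IRF8 themselves.

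**Figure D4:**
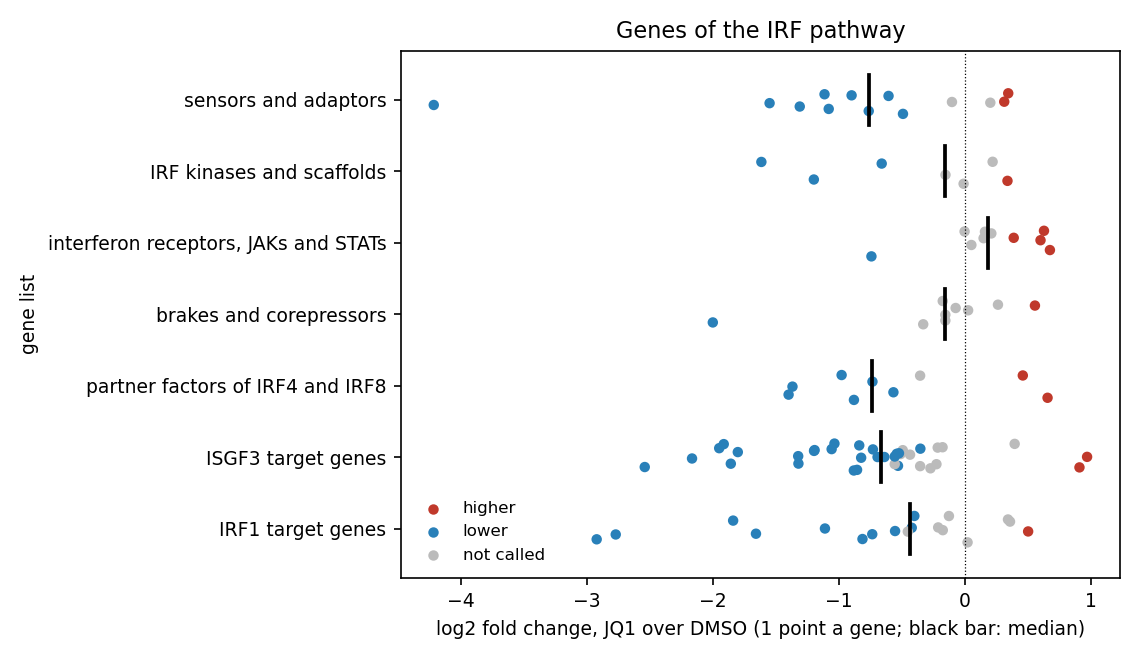
Log2 fold change of JQ1 over DMSO for the tested genes of 7 lists around the IRF family, 1 point a gene, coloured by call (edgeR adjusted p under 0.05), with a bar at each list's median. The medians run from -0.77 for sensors and adaptors to 0.18 for receptors, JAKs and STATs.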

How the data were processed

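Per the labels, libraries of ALL-SIL total RNA were made with a stranded kit, and the submitters' processing notes name GRCh38 as the build. Neither the aligner nor the annotation release is given in the labels. The authors deposited raw counts of reads per gene, in the layout of STAR's gene counts, for both strands together and for each strand. The sense column was used, where gene counts were 20.9 to 22.6 times those of the opposite column. The lines for read classes were left out (unmapped 1.48% to 1.99% of reads, multimapping 14.1% to 15.7%, no feature 18.8% to 26.1%, ambiguous 3.38% to 3.88%). Of 58096 identifiers 57492 matched GENCODE release 29 without their version and 53706 with it.

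Genes were kept by filterByExpr (minimum count 10, minimum total 15), scaled by TMM (factors 0.965 to 1.06) and tested with edgeR 4.0.16 (quasi-likelihood, robust, group only, R 4.3.3), with p-values adjusted by Benjamini-Hochberg over all tested genes and called under 0.05. The SE of a log2 change was its absolute value divided by the square root of its F statistic. The procedure was tested on simulated data. Floors cover counting error only, whereas SD and SE include the spread between libraries. All pairs of libraries within a group differed beyond sampling noise (chi-square per degree of freedom 14.8 to 32.3). Alternatives were DESeq2 1.42.0, limma-voom (limma 3.58.1), other scalings and filters, unstranded counts, the replicate number as a block, glmTreat at a 1.5-fold limit, and fits that left out 1 library.

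After subtraction of group means, libraries with the same number correlated (0.41, 0.53 and 0.46 across genes for numbers 1, 2 and 3). The numbers thus pair the libraries, as far as the data tell. Between numbers the correlations were -0.31 to -0.18. The subtraction itself forces these below 0 on average once those within a number are positive, so they add no separate evidence. Genes named were the members, the adjoining genes, up to 4 per list with the smallest p, and the 5 nearest in pattern. Most list genes called in small numbers, and TLR3, were also named, after their values were seen. Some genes are not reported here. The members and lists were chosen with earlier results of these data known.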

Additional observations from a re-analysis of the deposited data

Results flagged for a closer look

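IRF5 had almost no sense reads, yet 99.2% of the reads over its exons on both strands together lay on the opposite strand. They numbered 26, 24 and 19 in JQ1 replicates 1, 2 and 3, against 17, 20 and 23 in DMSO replicates 1, 2 and 3, or 1.13 ± 0.09 CPM under JQ1 and 0.83 ± 0.04 CPM in DMSO (SD, n = 3 each). This column of the files is not used in the main comparisons, which is why its values are given here. In CPM, though not in reads, every JQ1 library lay above every DMSO library. How often the groups are apart among all genes on that strand was not counted. The log2 change of 0.37 ± 0.30 SE did not pass edgeR's test over 7077 genes with enough opposite-strand reads (adjusted p = 0.45).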

How the results depend on the processing

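IRF7 kept its rise and its call in every alternative run, with log2 changes from 2.02 (without DMSO replicate 3) to 2.40 (without DMSO replicate 2). The fall of IRF1 kept its sign throughout, but ranged from -0.50 to -0.30 with a library left out, where 3 of 6 such fits lost the call (0 to 1 members lower), and its adjusted p was 1 against a fold change of 1.5 (-0.40, 0 members lower). IRF2 changed sign with library size only (-0.02) and ranged from -0.054 to 0.11 with a library left out. PHRF1, beside IRF7 and not called, was at -0.014 with library size only and between -0.0049 and 0.12 with a library left out. IRF3 was called only with the replicate block (0.25), which gave 2 members higher. The block changed no other member's call. Over all tested genes 2227 were higher and 2883 lower. With the replicate block 3813 were higher and 4133 lower, and against a fold change of 1.5 the counts were 246 and 899. IRF9 had 3.69 TPM under JQ1 and 3.28 TPM in DMSO over unshared exon bases, an alternative added after seeing the data, in place of 1.97 and 1.75. Depth limits IRF4, IRF5 and IRF8, and the shared exons limit IRF9.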
